A study of Mus musculus with 54 samples.

Results

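The F2 testes described here came from 2 parental crosses of mice and were compared by RNA sequencing. In the maternal dose 1 cross the father was a control and the mother belonged to the dose 1 group, whereas both parents of the control cross were controls. The libraries were chosen by their labels alone, 3 of each cross, so 6 of the 54 libraries of the series and 6 of its 18 F2 testis libraries are compared. Dose 1 was given in drinking water and consisted of ibuprofen (IBU) at 11.3 ng/L with its metabolite 2-hydroxyibuprofen at 90 ng/L, diclofenac (DCF) at 22.5 ng/L and the synthetic estrogen 17a ethinyl-estradiol (EE2) at 2.25 ng/L. Control water held 0.001% ethanol. The other F2 testis crosses, read for context, had a dose 2 mother, a dose 1 father, a dose 2 father or 2 parents of the dose 2 group, and each remaining parent was a control. Dose 2 held IBU at 113 ng/L, its metabolite at 225 ng/L, DCF at 112 ng/L and EE2 at 45 ng/L. In the parents' generation this water was given from 8.5 days post coitum. Testes were taken at 35 days post partum. The labels state which group each parent came from and give no dose for the F2 males themselves. They do not say whether the 3 libraries of a cross are separate males or separate litters. The p-values set a difference between crosses only against the spread among replicate libraries. A litter shared within a cross cannot be told apart from the cross. The question the crosses address is whether exposure of the mother's group is visible in gene expression of her sons' testes.

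Both IBU and DCF inhibit the cyclooxygenases that make prostaglandins, and EE2 acts through the estrogen receptors. In the testis, Leydig cells make androgens, Sertoli cells support the germ cells, and the aromatase of Cyp19a1 turns androgens into estrogens. Germ cells replicate their DNA as spermatogonia and once more just before meiosis, and then become round and elongating spermatids. The replicative helicase that opens DNA at the fork is built from Cdc45, the ring of Mcm2 to Mcm7 and the GINS complex of Gins1, Gins2, Gins3 and Gins4.

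The maternal dose 1 libraries held 36.1 to 39.6 M counts (M for mega) and the control cross libraries 37 to 43.5 M, so depth was alike. All 6 libraries carried the transcripts of a testis with spermatids: Prm1, which encodes a protamine, stood at 1580, 1948 and 1719 CPM (counts per M counts, after scaling of the libraries) in the maternal dose 1 cross and at 1883, 1725 and 1784 CPM in the control cross. The first principal component of the 18 F2 testis libraries, which held 14.4% of the variance, put library A of the maternal dose 1 cross at -19.1 and its libraries B and C at 2.95 and 9.78. The control cross libraries lay at -22.2, -3.53 and -11, so the crosses overlapped on this axis.

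Very few genes separated the crosses beyond the spread of replicates. Of 19379 genes tested, 2 passed an adjusted p of 0.05 in edgeR (0.0103% of genes), and both were higher in the maternal dose 1 cross: Gins1 and the long noncoding RNA gene 1700001J04Rik. At an unadjusted p under 0.05 there were 644 higher genes (3.32%) and 624 lower genes (3.22%). The groups did not overlap, with the maternal dose 1 libraries all higher, in 5.71% of genes, and with them all lower in 6.14%. Changes are log2 fold changes, maternal dose 1 minus control cross, and a positive value means higher in the maternal dose 1 cross. The median change of all genes was -0.000659, and 49.8% of genes had a positive value. The median standard error was 0.107 among the 16645 genes with at least 1 CPM, and 83 genes had a change of more than 1 in either direction.

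**Figure D1:**
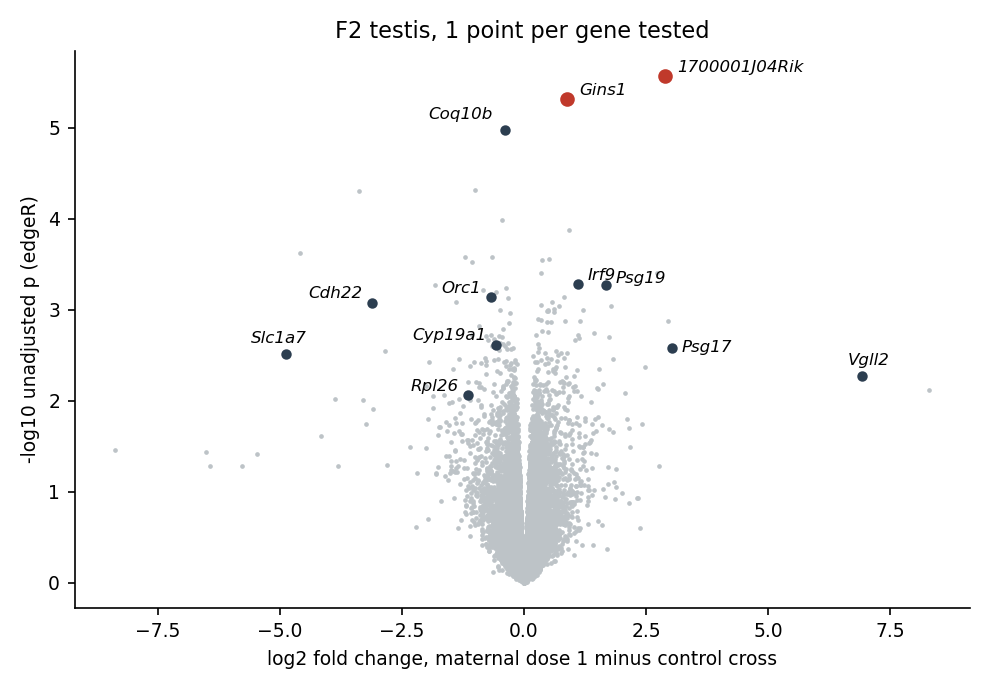
Each point is a gene tested; the x axis is the log2 fold change, maternal dose 1 minus control cross, and the y axis is -log10 of the unadjusted edgeR p. The 2 genes that passed, Gins1 and 1700001J04Rik, are red; labelled genes in dark blue did not pass, among them Vgll2 and Slc1a7 far out on the x axis.

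Gins1 encodes a subunit of the GINS complex. Its level was 16.6, 13.6 and 15.4 CPM in the maternal dose 1 cross and 9.53, 8.3 and 6.96 CPM in the control cross. All 3 maternal dose 1 libraries lay above all 3 control cross libraries, with no overlap. The means were 15.2 ± 1.53 CPM in the maternal dose 1 cross and 8.27 ± 1.28 CPM in the control cross (SD, n = 3 each), from summed counts of 1724 and 979. Gins1 rose by 0.88 (SE 0.136, 95% confidence interval 0.59 to 1.16, edgeR adjusted p = 0.0474). In the other crosses it stood at 10.1, 13.3 and 11.5 CPM with a dose 2 mother, at 7.87, 8.59 and 9.94 CPM with a dose 1 father, at 11, 13.2 and 13.8 CPM with a dose 2 father, and at 13.3, 12.5 and 15 CPM with both parents from dose 2. The maternal dose 1 cross was thus the highest by its mean, but its lowest library lay below libraries of the paternal dose 2 and biparental dose 2 crosses. The annotation used for names places the predicted gene Gm20550 over Gins1, so a share of reads could belong to it.

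None of the other 10 helicase genes passed. Gins2 stood at 9.42, 11.1 and 12.5 CPM in the maternal dose 1 cross and 10.4, 12.9 and 11.3 CPM in the control cross, a change of -0.07. Gins3 changed by -0.05 and Gins4 by 0.01, and the 6 Mcm genes by values between -0.01 (Mcm6) and 0.10 (Mcm5). Cdc45, which holds the helicase together with GINS, stood at 33.1, 30.5 and 28.4 CPM in the maternal dose 1 cross and 25, 27.1 and 25.1 CPM in the control cross. Its groups did not overlap, but its change of 0.25 (SE 0.083) did not pass (edgeR adjusted p = 0.73). Of the 11 helicase genes, 1 passed, and their median change was 0.05.

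1700001J04Rik had 89, 58 and 50 counts in the maternal dose 1 cross and 9, 12 and 6 counts in the control cross. These were 2.25, 1.52 and 1.4 CPM in the maternal dose 1 cross and 0.209, 0.326 and 0.159 CPM in the control cross, with no overlap. The RNA rose by 2.89 (SE 0.429, 95% confidence interval 1.99 to 3.79, edgeR adjusted p = 0.0474). The other 12 libraries of F2 testis ran from 0.887 to 4.5 CPM with a median of 3.04, so the control cross lay below all 15 other libraries and the maternal dose 1 cross lay within the range of the others. In F1 testis the level was 3.61, 0.164 and 3.95 CPM at dose 1 and 2.46, 2.92 and 0.169 CPM in controls, so single F1 libraries of either group were as low as the F2 control cross. It was not detectable in the F2 ovary libraries of either cross, where it is listed at 0 at 37.9 to 84.7 M counts per library.

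**Figure D2:**
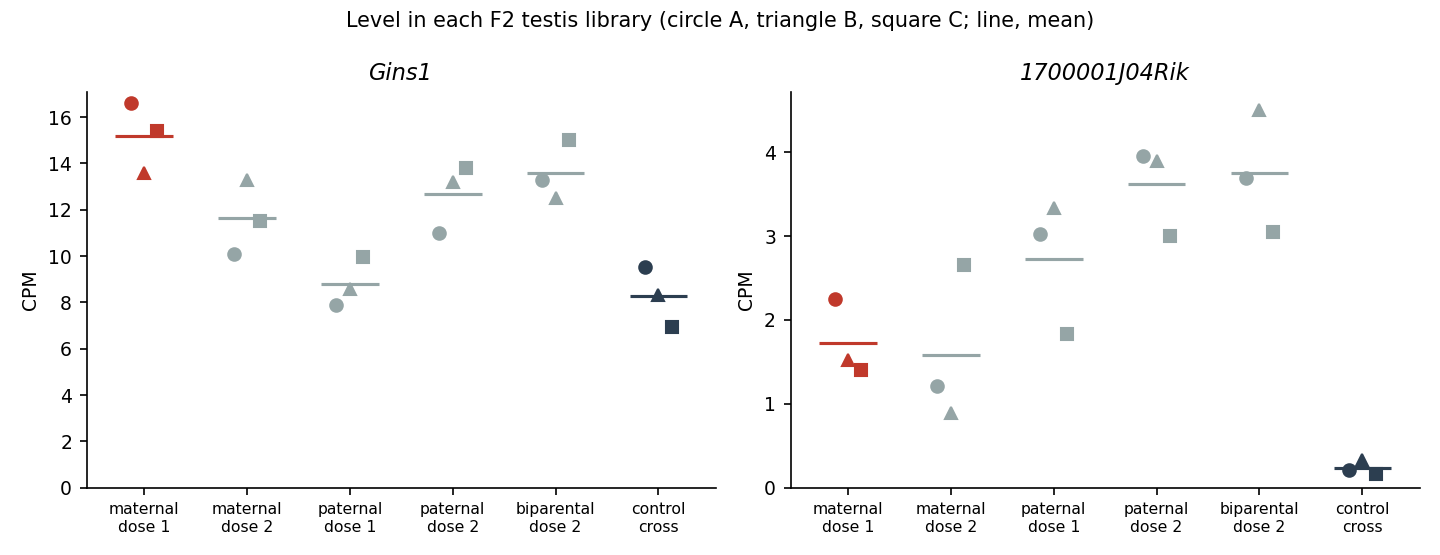
CPM of Gins1 and 1700001J04Rik (y axes, from 0) in the 18 F2 testis libraries by cross (x axis); circles, triangles and squares are libraries A, B and C and lines are means of 3. Gins1 sits at 13.6 to 16.6 CPM in the maternal dose 1 cross and 6.96 to 9.53 CPM in the control cross, and 1700001J04Rik is lowest in the control cross, at 0.159 to 0.326 CPM.

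The sequence around the start of 1700001J04Rik is shown because this gene had the lowest p of all. In RefSeq on GRCm38.p6, a different build from that of the counts, its start region lies on the minus strand at chr11:114186700-114186999 and 53.7% of its 300 bases are G or C. Capitals mark the matches of a motif search on both strands.
1700001J04Rik: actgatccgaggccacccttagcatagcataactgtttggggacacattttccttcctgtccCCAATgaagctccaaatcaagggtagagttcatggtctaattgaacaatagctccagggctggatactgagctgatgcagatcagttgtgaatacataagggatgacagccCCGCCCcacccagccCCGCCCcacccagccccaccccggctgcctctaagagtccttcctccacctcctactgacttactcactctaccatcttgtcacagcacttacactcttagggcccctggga
The search found 1 CCAAT box (CCAAT, in 37.4% of 32851 promoters of the same length) and 2 GC boxes (GGGCGG, in 35.7%), both on the opposite strand. It found no TATA box (TATAAA, in 13.6% of promoters), no cAMP response element (TGACGTCA, in 1.79%), no palindromic estrogen response element (in 0.07%) and no AGGTCA, a single arm of nuclear receptor sites (in 16.3%).

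Both calls stood close to the threshold, and most fits that left out 1 library lost them. Such a fit also has less power, so a lost call does not show that it rested on that library. Without library B of the maternal dose 1 cross both genes still passed (edgeR adjusted p = 0.0439 for each), but neither did when any other 1 of the 6 was left out. Gins1 then had an edgeR adjusted p of 0.207 without maternal dose 1 A, 0.189 without maternal dose 1 C, 0.0848 without control cross A, 0.129 without control cross B and 0.422 without control cross C. For 1700001J04Rik the values were 0.19, 0.0864, 0.289, 0.1 and 0.416 in the same order, while its change stayed between 2.65 and 3.20. The change of Gins1 stayed between 0.77 and 0.99. Fitted with all 27 testis libraries, neither gene passed (edgeR adjusted p = 0.923 for Gins1 and 1 for 1700001J04Rik).

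The gene next by p was Coq10b, which encodes a coenzyme Q binding protein of mitochondria. It stood at 27, 27 and 24.3 CPM in the maternal dose 1 cross and at 34.6, 34.8 and 32.8 CPM in the control cross, a change of -0.38 (SE 0.0636) that did not pass (edgeR adjusted p = 0.0686). The other 12 libraries ran from 23.9 to 30.6 CPM, so the control cross lay above all 15 others and the maternal dose 1 cross lay among them. The same count was made for every gene tested: the maternal dose 1 cross lay outside the range of the 15 other libraries in 79 genes and the control cross in 103. The maternal dose 2 cross did so in 207 genes, the paternal dose 1 cross in 103, the paternal dose 2 cross in 48 and the biparental dose 2 cross in 38. Of the 2295 genes whose maternal dose 1 and control cross libraries did not overlap, 2113 had neither group outside the other 15.

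A rule on size picked 20 further genes, the 10 largest changes in each direction with an unadjusted p under 0.01, groups that did not overlap and at least 1 CPM in the higher group, leaving out predicted genes and clone names. None of them passed (lowest edgeR adjusted p = 0.452, for Amd2). The criteria were met by 209 genes, and by 179 without predicted genes and clone names. The higher ones were Vgll2, Psg17, Gal3st2, Psg19, Cnga3, Cdhr5, Capg, Igfn1, Irf9 and Prss53, and the lower ones Slc1a7, Tmprss11a, Cdh22, Pde6a, Rpl26, Amd2, Ccdc162, Rps6-ps4, Retsat and Actn3. Against the 15 other F2 testis libraries, the maternal dose 1 cross stood outside the range in 1 of the 20, Slc1a7, and the control cross in 1, Prss53. DESeq2 called 12 genes, 5 higher and 7 lower. They include Psg19, Amd2 and Irf9 of the 20 (DESeq2 adjusted p = 0.0206, 0.0208 and 0.0294 in that order) and Coq10b, which is outside the rule (DESeq2 adjusted p = 0.000365). In edgeR the 6 libraries alone gave 6 genes, 1 higher and 5 lower. They include Rpl26, Cdh22, Actn3 and Slc1a7 (edgeR adjusted p = 0.00515, 0.0181, 0.0422 and 0.0466 in that order).

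Several of these genes switched between near absence and a clear level from one library to the next within single crosses. Vgll2, a cofactor of the TEAD transcription factors, stood at 15.6, 22.5 and 0.14 CPM in the maternal dose 1 cross and 0.0697, 0.109 and 0.132 CPM in the control cross. Library C of the maternal dose 1 cross was therefore at the level of the controls, and the maternal dose 2 cross held 14.2, 0.0507 and 7.13 CPM. Slc1a7, a glutamate transporter of the retina, had 2, 1 and 1 counts in the maternal dose 1 cross and 68, 22 and 44 counts in the control cross. In the paternal dose 1 cross it stood at 0.0513, 1.87 and 0.0685 CPM, again low and high within 3 libraries. Cdh22, a cadherin, stood at 0.785, 1.73 and 1.12 CPM in the maternal dose 1 cross and 7.48, 11.5 and 12.8 CPM in the control cross, a change of -3.12 (edgeR adjusted p = 0.557). The other 12 libraries held Cdh22 at 0.583 to 12.5 CPM, which covers both groups except control cross C at 12.8 CPM.

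Rpl26, a ribosomal protein gene with many near-identical copies whose reads may be shared, stood at 25.2, 25 and 25 CPM in the maternal dose 1 cross and 61.2, 49.1 and 56.3 CPM in the control cross. Its change was -1.15 (edgeR adjusted p = 0.73). Most other F2 testis libraries had the lower level, between 22.2 and 27.9 CPM in 10 of 12, while paternal dose 2 A had 51.7 and biparental dose 2 A 94.1 CPM. Amd2, a retrogene copy of the S-adenosylmethionine decarboxylase gene Amd1, stood at 3.7, 2.05 and 1.81 CPM in the maternal dose 1 cross and 4.62, 5.35 and 5.96 CPM in the control cross. Amd1 itself changed by 0.02, and reads of the pair can be mixed. Retsat, the retinol saturase gene, stood at 17, 26.5 and 17.4 CPM in the maternal dose 1 cross and 31.9, 45.5 and 38.3 CPM in the control cross, a change of -0.93.

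Psg17 and Psg19 belong to the pregnancy-specific glycoproteins, a family of secreted proteins of the placenta. Psg17 had 120, 61 and 64 counts in the maternal dose 1 cross and 0, 30 and 0 counts in the control cross. Psg19 stood at 6.99, 3.89 and 4.13 CPM in the maternal dose 1 cross and 0.93, 2.58 and 1.22 CPM in the control cross, a change of 1.68 (edgeR adjusted p = 0.557). Psg16 of the same family changed by -0.07, and since these genes are close copies their counts are uncertain. Irf9, the DNA-binding subunit of the interferon-activated factor ISGF3, stood at 6.13, 12.7 and 9.29 CPM in the maternal dose 1 cross and 4.35, 4.13 and 4.66 CPM in the control cross. Its change was 1.10 (edgeR adjusted p = 0.557), and paternal dose 1 B had 9.6 CPM.

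**Figure D3:**
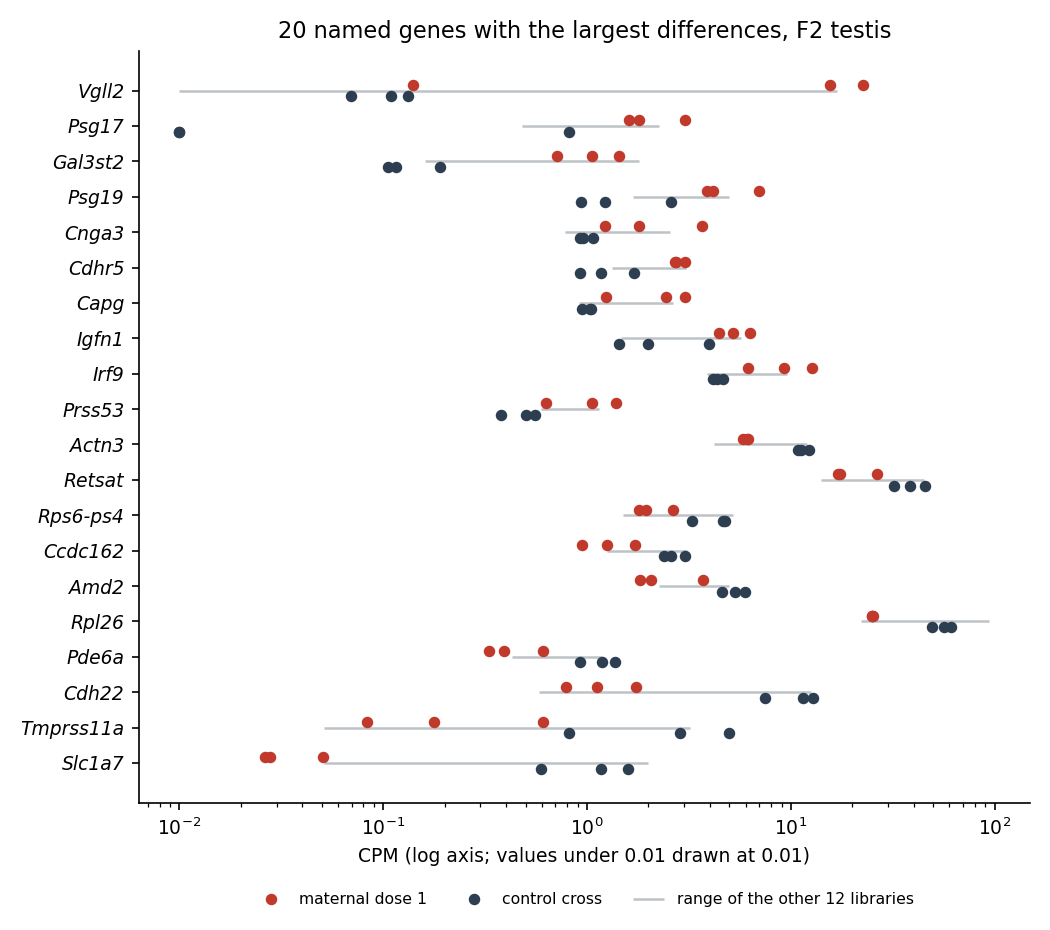
CPM on a log x axis for the 20 genes with the largest differences under the naming rule (y axis), with maternal dose 1 libraries in red above control cross libraries in dark blue; grey lines span the other 12 F2 testis libraries. The grey line of Cdh22, at 0.583 to 12.5 CPM, reaches from below the red points to the upper blue points, and that of Vgll2 covers most points of both groups.

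Of 34 gene lists of pathways, cell markers and RNA quality, Gins1 was the single member that passed. Lists are described by their counts beside those of all genes (3.32% higher and 3.22% lower at an unadjusted p under 0.05), with no test of the list. Among the genes of origin licensing and initiation, 16 of 18 had a negative value, with a median change of -0.05. The lowest p among them was that of Orc1, the largest subunit of the origin recognition complex, at 6.15, 4.94 and 4.86 CPM in the maternal dose 1 cross and 9.51, 7.35 and 8.55 CPM in the control cross. The Orc1 groups did not overlap, and the change of -0.67 (SE 0.165) did not pass (edgeR adjusted p = 0.557). The 28 genes of fork polymerases and the clamp had a median of -0.00 with 13 values positive, and the 30 cell cycle genes a median of -0.01. Among these, Lig1, the ligase that joins Okazaki fragments, stood at 24.8, 23.9 and 23.8 CPM in the maternal dose 1 cross and 27.9, 27.4 and 26.2 CPM in the control cross. Its change was -0.17 (edgeR adjusted p = 0.747), and the other 12 libraries ran from 25.6 to 33.8 CPM, above the maternal dose 1 cross.

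No gene on which the drugs of the cocktail bear passed. Cyp19a1 had the lowest p of them, at 5.32, 6.1 and 5.97 CPM in the maternal dose 1 cross and 10.1, 7.11 and 8.63 CPM in the control cross. Its groups did not overlap, with a change of -0.57 (SE 0.162, unadjusted p = 0.00245, edgeR adjusted p = 0.696). The other 12 libraries ran from 4.79 to 9.12 CPM. Of the genes that lead to androgens, Star, the cholesterol carrier of the first step, differed by 0.25 on the log2 scale, Cyp11a1 by -0.15, Hsd3b1 by 0.29 and Cyp17a1 by -0.03, and none of the 4 passed. The 95% confidence intervals were -0.16 to 0.66 for Star and -0.02 to 0.60 for Hsd3b1. The estrogen receptor genes Esr1 and Esr2 changed by 0.10 and -0.63, and Esr2 was low, at 0.304, 0.368 and 0.14 CPM in the maternal dose 1 cross and 0.442, 0.326 and 0.503 CPM in the control cross. Ptgs1, the constitutive cyclooxygenase, changed by -0.04, and Ptgs2 was too low to test. The 20 genes of drug and estrogen metabolism had a median of 0.04. At an unadjusted edgeR p under 0.05, 3 of the 20 were higher, against 3.32% of all genes, and none was lower. In that list Gstm1, a glutathione transferase, stood at 255, 294 and 193 CPM in the maternal dose 1 cross and 185, 154 and 195 CPM in the control cross (change 0.48, edgeR adjusted p = 0.557), with overlap. Gstp1 changed by 0.49 and Gstt1 by 0.98, both without overlap (edgeR adjusted p = 0.73 and 0.739).

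No germ cell marker passed. The median change was -0.11 over 19 spermatogonia markers, of which 7 were positive. It was -0.05 over 29 meiotic prophase markers, of which 6 were positive, 0.01 over round spermatid markers and -0.02 over elongating spermatid markers. Single genes with at least 1 CPM had an interquartile range of -0.08 to 0.08. The spermatogonia median lay outside it, as did those of several other lists, such as Leydig cell markers (0.25) and extracellular matrix genes (0.12). That range describes single genes and is no measure of the spread of a list median. Spermatogonia markers summed to 731 to 800 CPM in the maternal dose 1 cross and 756 to 809 CPM in the control cross, with overlap. Kit, a receptor of differentiating spermatogonia, stood at 29.5, 28.8 and 24.8 CPM in the maternal dose 1 cross and 25.7, 23.8 and 24.8 CPM in the control cross, so the groups met. Its change of 0.16 (edgeR adjusted p = 0.751) went against the median of its list. Of the same list, Stra8 changed by -0.14 and Zbtb16 by 0.03. Sall4 had 118, 100 and 106 counts in the maternal dose 1 cross and 191, 132 and 110 counts in the control cross (sums 324 and 433). Lin28a had 155, 129 and 167 counts in the maternal dose 1 cross and 191, 177 and 183 counts in the control cross (sums 451 and 551). These counts are not scaled for library size. Sycp2, a component of the synaptonemal complex, stood at 420, 382 and 380 CPM in the maternal dose 1 cross and 470, 466 and 427 CPM in the control cross (change -0.20, edgeR adjusted p = 0.73). The round spermatid markers included 7 of 25 whose groups did not overlap with the maternal dose 1 libraries higher, against 5.71% of all genes. Acr, the acrosin protease gene, was among them, at 241, 231 and 232 CPM in the maternal dose 1 cross and 217, 217 and 221 CPM in the control cross. Acr changed by 0.10 (edgeR adjusted p = 0.756). In bulk tissue, fewer cells of a type and less RNA per cell cannot be told apart.

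Leydig cell markers had the highest median of the lists, 0.25, with 14 of 17 values positive, and none passed. Their summed level was 1489 to 1618 CPM in the maternal dose 1 cross and 1258 to 1649 CPM in the control cross, so the groups overlapped. Insl3, a Leydig cell hormone, stood at 61.3, 74.6 and 73.9 CPM in the maternal dose 1 cross and 66.4, 50.8 and 50 CPM in the control cross. Sertoli cell markers had a median of 0.04. Within that list Shbg, the androgen-binding protein gene, stood at 8.3, 9.73 and 7.28 CPM in the maternal dose 1 cross and 11.6, 10.7 and 11.9 CPM in the control cross (change -0.43, edgeR adjusted p = 0.654). Cst9, a cystatin gene, went the other way, at 68.2, 59.8 and 57.9 CPM in the maternal dose 1 cross and 49.3, 36 and 35.9 CPM in the control cross (change 0.62, edgeR adjusted p = 0.73). Neither gene's groups overlapped.

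**Figure D4:**
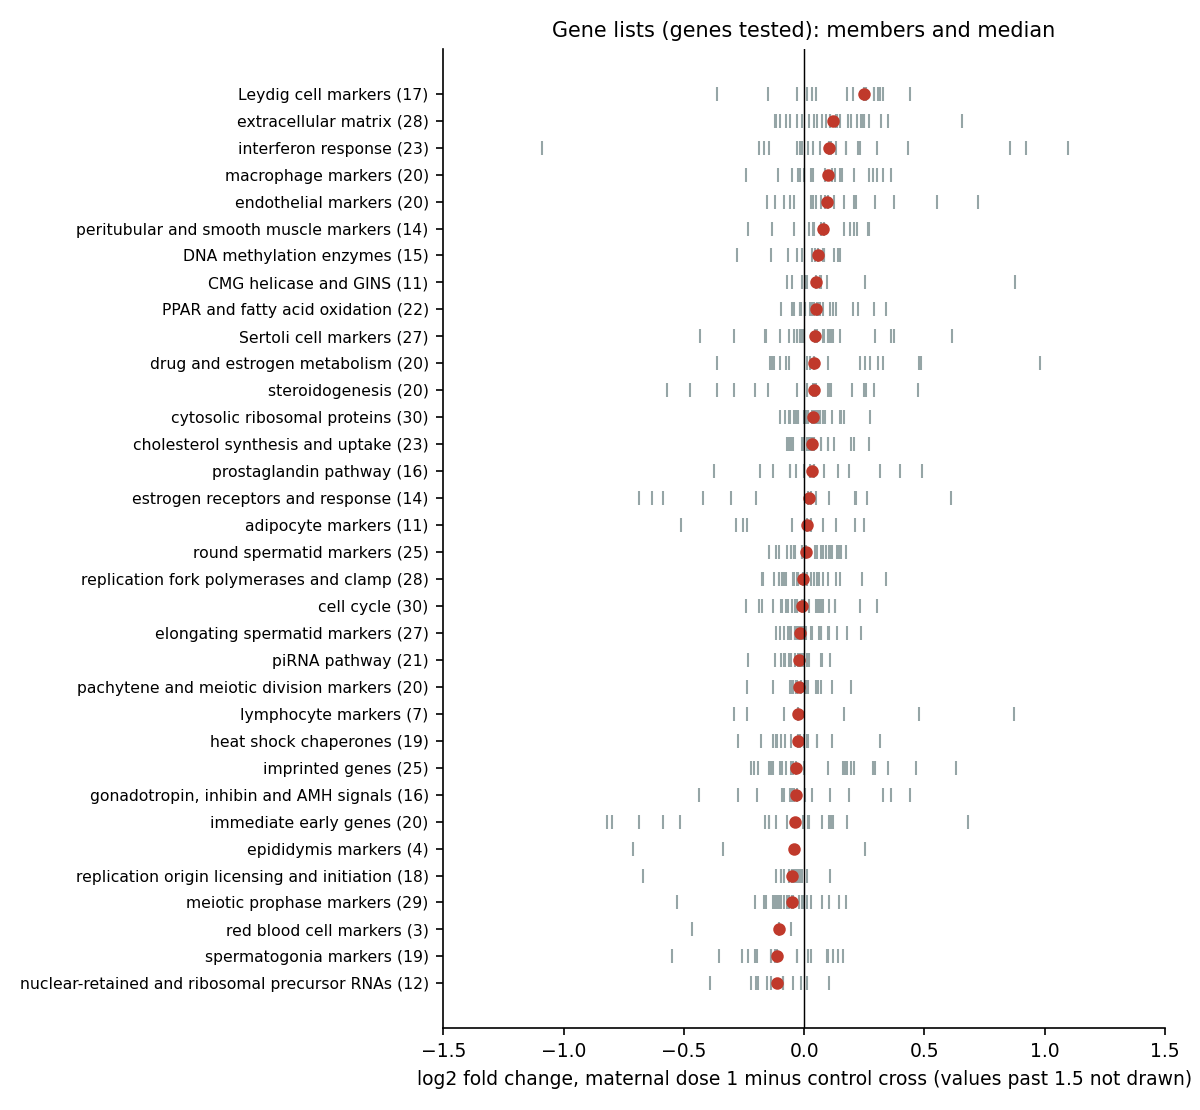
Log2 fold change, maternal dose 1 minus control cross (x axis), for the members tested of each gene list (y axis, number tested in brackets); grey ticks are genes and red points are medians. The medians run from -0.11 for nuclear-retained RNAs to 0.25 for Leydig cell markers.

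Markers of other cells that a piece of testis can hold were measured in both crosses. Endothelial markers summed to 124 to 144 CPM in the maternal dose 1 cross and 117 to 126 CPM in the control cross, with 15 of 20 values positive and a median change of 0.09. Pecam1, an adhesion molecule of endothelium, changed by 0.37 and Vwf, the von Willebrand factor gene, by 0.30 (edgeR adjusted p = 0.739 and 0.73). Macrophage markers summed to 365 to 407 CPM in the maternal dose 1 cross and 361 to 415 CPM in the control cross, and adipocyte markers to 606 to 667 CPM in the maternal dose 1 cross and 619 to 632 CPM in the control cross. Epididymis markers summed to 3.73 to 7.81 CPM in the maternal dose 1 cross and 6.28 to 9.44 CPM in the control cross. Defb41 had 22, 15 and 20 counts in the maternal dose 1 cross and 34, 34 and 29 counts in the control cross. Rnase10 had 208, 82 and 149 counts in the maternal dose 1 cross and 261, 157 and 162 counts in the control cross. Crisp1 had 0, 2 and 39 counts in the maternal dose 1 cross and 1, 6 and 1 counts in the control cross. Of the defining markers, Adam7 had 3, 0 and 6 counts in the maternal dose 1 cross and none in the control cross. Lcn5 had none in the maternal dose 1 cross and 1 in all in the control cross. Lcn8 was alike, at 1, 0 and 3 counts in the maternal dose 1 cross and 1, 1 and 3 counts in the control cross. The globin genes Hba-a1 and Hbb-bs are listed at 0 in all 6 libraries, and the 3 red blood cell markers tested had a median of -0.11. The part of these cell types in the 2 genes that passed was not tested.

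Interferon response genes had a median of 0.10, with 15 of 23 values positive and Irf9, described above, as the member with the lowest p. Extracellular matrix genes had a median of 0.12 with 21 of 28 positive. In that list Eln, the elastin gene, stood at 25.1, 39.7 and 42.6 CPM in the maternal dose 1 cross and 17, 21.8 and 29.3 CPM in the control cross (change 0.66, edgeR adjusted p = 0.704), with overlap. Immediate early genes had a median of -0.04, with 9 of 20 values positive. At an unadjusted edgeR p under 0.05 none was higher and 3 of 20 were lower, against 3.22% of all genes. Egr1, a growth factor induced transcription factor, was among them, at 3.01, 3.71 and 3.96 CPM in the maternal dose 1 cross and 3.93, 5.86 and 8.84 CPM in the control cross (change -0.80, edgeR adjusted p = 0.702), with overlap.

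The maternal dose 1 cross was next set against the cross with the same dose on the father's side, which uses the same 3 maternal dose 1 libraries and different reference libraries. In this direct test 8 genes passed (0.0413% of 19379), 5 higher and 3 lower in the maternal dose 1 cross. At an unadjusted p under 0.05, 6.18% of genes were higher and 5.37% lower. Rn45s, the precursor of ribosomal RNA, stood at 262, 237 and 248 CPM in the maternal dose 1 cross and 149, 109 and 119 CPM in the paternal dose 1 cross, with no overlap. It was higher in the maternal dose 1 cross by 0.99 (SE 0.104, edgeR adjusted p = 0.000424), and it passed whichever 1 of the 6 libraries was left out, though not with all 27 testis libraries in the fit (edgeR adjusted p = 0.162) nor with the 6 libraries alone (0.0543). Malat1, a long noncoding RNA kept in the nucleus, was higher by 1.32 (SE 0.197, edgeR adjusted p = 0.0186), at 807, 950 and 642 CPM in the maternal dose 1 cross and 396, 326 and 237 CPM in the paternal dose 1 cross. Malat1 failed without maternal dose 1 A (0.0635) or B (0.131) and without paternal dose 1 B (0.123) or C (0.137).

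Reads at the microRNA gene Mir6236 were higher by 1.89 (SE 0.32, edgeR adjusted p = 0.0478), at 159, 173 and 160 CPM in the maternal dose 1 cross and 71, 40.8 and 21.1 CPM in the paternal dose 1 cross. Gins1 was higher by 0.79 (SE 0.135, edgeR adjusted p = 0.0478), with no overlap between 13.6 CPM, the lowest maternal dose 1 library, and 9.94 CPM, the highest paternal dose 1 library. Ube4bos3, a transcript opposite to the ubiquitin ligase gene Ube4b, was higher by 0.77 (edgeR adjusted p = 0.0151), at 43.3, 37.1 and 37.7 CPM in the maternal dose 1 cross and 24.3, 24.5 and 20.5 CPM in the paternal dose 1 cross. Its reads may be shared with Ube4b. Mean Ube4bos3 was 38.4 CPM in the control cross, close to the 39.4 CPM of the maternal dose 1 cross. It was 34.9, 31.8 and 29.9 CPM in the maternal dose 2, paternal dose 2 and biparental dose 2 crosses, all above the 23.1 CPM of paternal dose 1. Left out singly, maternal dose 1 A (edgeR adjusted p = 0.0635), paternal dose 1 B (0.0598) and paternal dose 1 C (0.137) each ended the Ube4bos3 call. Mir6236 passed only without paternal dose 1 A (0.00323), and had an edgeR adjusted p of 0.0861 to 0.17 without each of the others.

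The 3 lower genes of this test were Sirt2, Htatsf1 and Gm17089. Sirt2, a deacetylase gene, was at 140, 139 and 138 CPM in the maternal dose 1 cross and 193, 185 and 190 CPM in the paternal dose 1 cross, and fell by 0.44 (SE 0.0765). Against the control cross, at 138, 130 and 135 CPM, its change was 0.05. Htatsf1, which encodes a factor of transcription elongation and splicing, was at 34, 31.6 and 32.2 CPM in the maternal dose 1 cross and 39.3, 42 and 41.3 CPM in the paternal dose 1 cross (change -0.33, SE 0.0542). The predicted gene Gm17089, named after its values were seen, was at 3.87, 3.94 and 3.35 CPM in the maternal dose 1 cross and 11.9, 9.57 and 11.6 CPM in the paternal dose 1 cross (change -1.57, SE 0.272). In the control cross the means were 35.3 CPM for Htatsf1 and 5.67 CPM for Gm17089. The maternal dose 2, paternal dose 2 and biparental dose 2 crosses had means of 35.3, 36.8 and 38.4 CPM for Htatsf1. For Gm17089 these were 4.43, 5.49 and 6.37 CPM in the same order. All 3 lower genes had an edgeR adjusted p of 0.0478. Gins1, Sirt2 and Gm17089 failed the threshold whichever 1 of the 6 libraries was left out, with an edgeR adjusted p between 0.0657 and 0.225, and Htatsf1 passed only without paternal dose 1 A (0.0305).

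Set against the cross with a dose 2 mother, 3 genes passed (0.0155%), all higher in the maternal dose 1 cross, and at an unadjusted p under 0.05 there were 5.21% higher and 4.9% lower. Malat1 stood at 807, 950 and 642 CPM in the maternal dose 1 cross and 269, 366 and 302 CPM in the maternal dose 2 cross, a change of 1.36 (SE 0.197). Rn45s was at 262, 237 and 248 CPM in the maternal dose 1 cross and 140, 166 and 165 CPM in the maternal dose 2 cross, with a change of 0.66 (SE 0.103). Mir7210 was at 1.49, 1.5 and 1.17 CPM in the maternal dose 1 cross and 0.553, 0.406 and 0.354 CPM in the maternal dose 2 cross, with a change of 1.67 (SE 0.253). These 3 had an edgeR adjusted p of 0.0317 and no overlap. Malat1, Rn45s and Mir7210 failed without maternal dose 1 A, where the edgeR adjusted p was 0.196, 0.269 and 0.245 in that order, without maternal dose 1 B (0.17 for each), and without maternal dose 2 A or C (0.0579 to 0.372). Without maternal dose 2 B, Rn45s (0.11) and Mir7210 (0.111) failed and Malat1 passed (0.0448).

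The microRNAs of the 2 loci are shown because reads at these loci passed in the direct tests, Mir6236 against the paternal dose 1 cross and Mir7210 against the maternal dose 2 cross. Sequences are from RefSeq on GRCm38.p6, with the seed, bases 2 to 8, in capitals.
mmu-miR-6236: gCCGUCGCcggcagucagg
mmu-miR-7210-5p: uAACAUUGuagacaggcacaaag
mmu-miR-7210-3p: uUAUAUGUaaguaacaauguggcu
No seed is shared among them. The first lies on the plus strand at chr9:110281353-110281371, and both arms of Mir7210 lie on the plus strand of chromosome 14, from 24088877 to 24088930. The libraries were made with an mRNA kit and 100 nt reads, so a read at these loci comes from a longer RNA and is no measure of the mature microRNA of 19 to 24 nt. The annotation places the predicted gene Gm39429 over Mir6236.

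None of these RNAs passed against the control cross. Malat1, at 807, 950 and 642 CPM in the maternal dose 1 cross and 1073, 793 and 890 CPM in the control cross, had a change of -0.20 (SE 0.193, edgeR adjusted p = 0.876). Rn45s, at 262, 237 and 248 CPM in the maternal dose 1 cross and 267, 239 and 246 CPM in the control cross, had a change of -0.01 (SE 0.103, edgeR adjusted p = 0.988). Mir6236, at 242, 187 and 169 CPM in the control cross, had a change of -0.28, and Mir7210, at 1.74, 1.38 and 1.48 CPM in the control cross, a change of -0.15. Lars2, a mitochondrial leucyl-tRNA synthetase gene overlapped by the predicted gene Gm46137, was at 3069, 2682 and 1982 CPM in the maternal dose 1 cross and 3937, 3165 and 3047 CPM in the control cross (change -0.39, edgeR adjusted p = 0.857). The other 12 libraries held it at 292 to 2007 CPM. A missed threshold does not show that levels were equal, and for Malat1 the 95% confidence interval of the change was -0.61 to 0.21. Of the 12 nuclear-retained and ribosomal precursor RNAs listed, 2 had a positive value, the median was -0.11 and none passed. Neat1, a nuclear RNA of paraspeckles, was at 99.5, 116 and 117 CPM in the maternal dose 1 cross and 105, 100 and 104 CPM in the control cross.

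**Figure D5:**
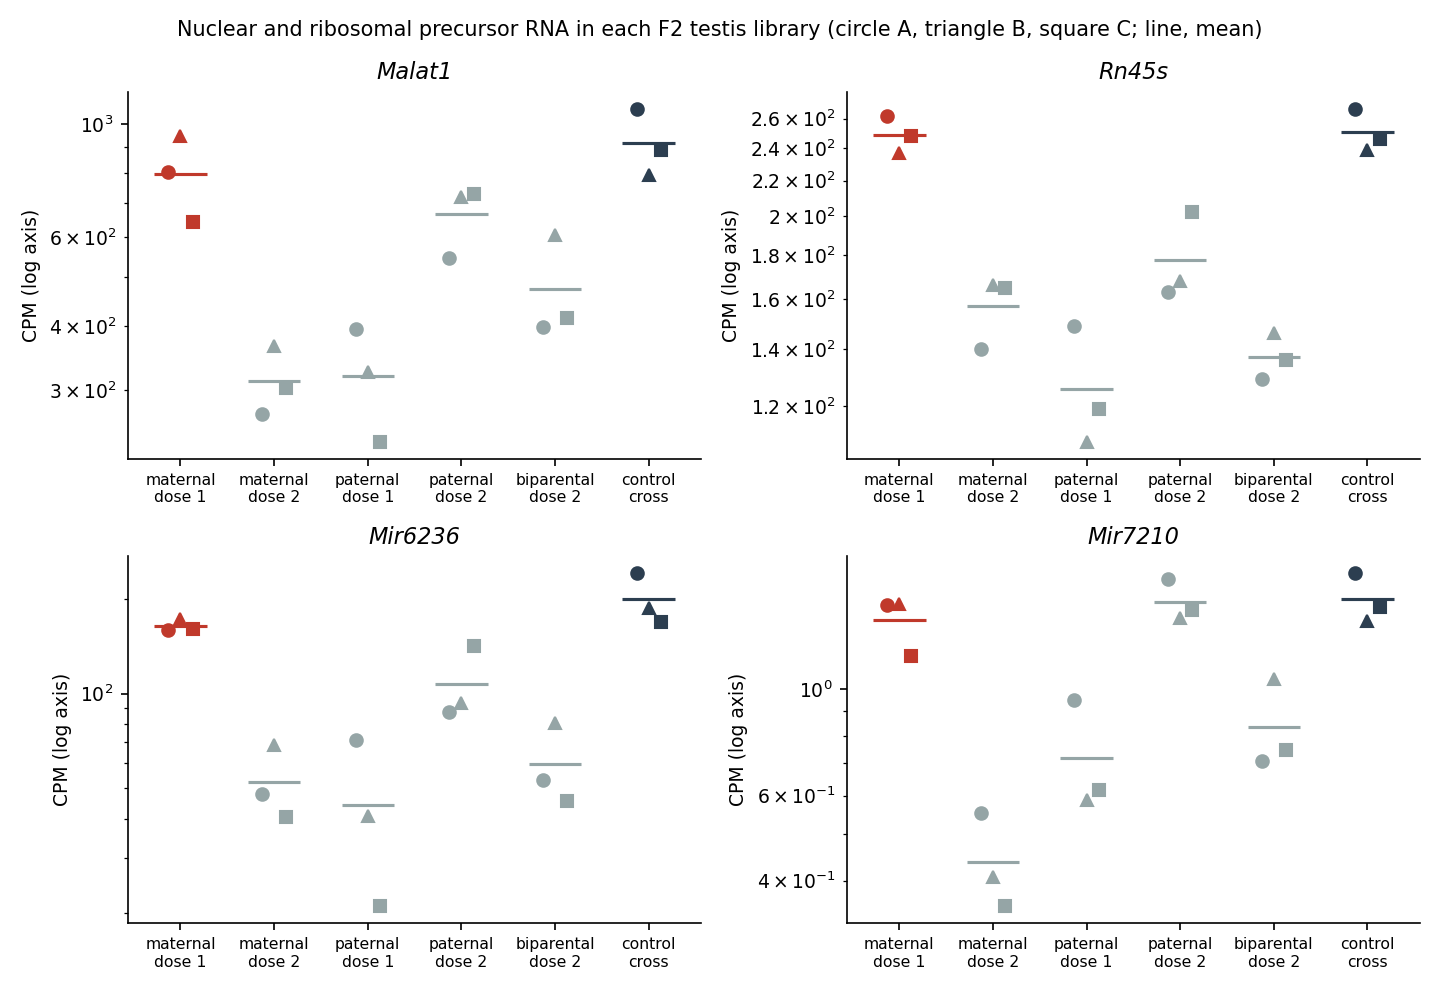
CPM on log y axes of Malat1, Rn45s and reads at Mir6236 and Mir7210 in the 18 F2 testis libraries by cross (x axis); circles, triangles and squares are libraries A, B and C and lines are means of 3. The maternal dose 1 and control cross libraries hold Rn45s at 237 to 267 CPM, above the 109 to 202 CPM of the other 12.

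Levels of the 2 genes elsewhere in the series were read without a test, since each tissue and generation was scaled on its own. Gins1 stood at 11.7, 16.2 and 13.2 CPM in F1 testis at dose 1 and 9.43, 13.5 and 13.7 CPM in F1 controls. In F2 ovary it was at 11.8, 10.5 and 9.4 CPM in the maternal dose 1 cross and 8.98, 15.4 and 11.5 CPM in the control cross. The groups overlapped in both.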

How the data were processed

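RNA of 54 mouse testis and ovary libraries was sequenced with a stranded mRNA ligation kit and 100 nt reads, per the labels. For each tissue the authors deposited 1 table of raw counts for 26264 genes, not normalized. Per the submitters' processing notes, tools included TopHat2 2.1.1 and Bowtie2 2.4.5 for the mouse build mm39 and featureCounts 2.0.3. Which annotation and strand setting featureCounts used is not given in the sources used here. Antisense and overlapping genes, pseudogenes and paralogs are therefore uncertain. Gene names, overlaps and sequences from RefSeq are on GRCm38.p6, and no coordinates of it are given for the counts.

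The 18 F2 testis libraries were fitted together with edgeR 4.0.16 under R 4.3.3. Group means were the design, with scaling by the trimmed mean of M values (TMM), filterByExpr at a minimum count of 10, quasi-likelihood F tests and Benjamini-Hochberg adjustment over 19379 genes at 0.05. CPM are counts scaled to TMM library sizes. No permutation test was run, because the smallest exact p that 3 libraries against 3 allow is 0.1. Total counts in F2 testis were 31.6 to 48.2 M (M for mega). The 3 comparisons share the maternal dose 1 libraries. Replicate libraries differed by more than counting error (chi-square per degree of freedom 7.43 to 17). The fit was tested on simulated data.

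Named were genes that passed, the 10 largest changes in each direction under the criteria given, the helicase genes, 9 drug-related genes, up to 3 members of each of 34 lists by lowest p or the defining cell markers, and up to 5 genes in each direction that passed a direct test. Coq10b, Psg16, Amd1, Lars2, Malat1 and Neat1 against the control cross, and the values of other libraries, were added after values were seen. The comparison, the lists and the rule were chosen with earlier results of these data known. Alternatives were RLE scaling, no filter, a minimum count of 30, DESeq2 1.42.0, the 6 libraries alone, all 27 testis libraries, the replicate letter as a block, and leaving out each library.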

Additional observations from a re-analysis of the deposited data

Results flagged for a closer look

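The maternal dose 1 cross differed from the paternal dose 1 cross by a direct test in 8 genes. The log2 fold changes, maternal dose 1 minus paternal dose 1, were 0.99 for Rn45s, 0.77 for Ube4bos3, 1.32 for Malat1, 1.89 for Mir6236, 0.79 for Gins1, -0.33 for Htatsf1, -1.57 for Gm17089 and -0.44 for Sirt2. It differed from the maternal dose 2 cross in 3 genes, by 1.36 for Malat1, 1.67 for Mir7210 and 0.66 for Rn45s. These genes stand here because the difference between 2 exposed crosses was tested itself. Of them, only Gins1 also passed against the control cross. For Rn45s, Malat1, Mir6236 and Mir7210 the maternal dose 1 and control cross libraries overlapped. In both of these crosses Rn45s and Mir6236 lay above all other F2 testis libraries. The list of nuclear-retained and ribosomal precursor RNAs was drawn up for RNA quality, whose part in these differences was not tested. In F1 testis, Malat1 stood at 304, 241 and 178 CPM at dose 1 and at 199, 468 and 104 CPM in controls, and the groups overlapped.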

How the results depend on the processing

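RLE scaling, no filter and a minimum count of 30 kept the 2 calls against the control cross, with the same genes. The median of all genes moved by at most 0.00641 under RLE. DESeq2 gave 12 genes, 5 higher and 7 lower, both of the 2 among them. The 6 libraries alone gave 6, 1 higher and 5 lower, of which 1 was shared, 1700001J04Rik, while Gins1 failed (edgeR adjusted p = 0.146). All 27 testis libraries gave 0 (505 at an unadjusted p under 0.05 in edgeR). Leaving out 1 library gave 0 to 3 genes against the control cross, 1 to 15 against the paternal dose 1 cross and 0 to 18 against the maternal dose 2 cross. Against the paternal dose 1 cross the count was 151 by DESeq2, 2 with the 6 libraries alone and 0 with all 27 (750 at an unadjusted p under 0.05). Against the maternal dose 2 cross it was 62 by DESeq2, 0 with the 6 libraries alone (1787 at an unadjusted p under 0.05) and 0 with all 27 (714). The cause was not tested. The labels do not say whether the library letters pair the samples. Deviations of the same letter in the maternal dose 1 and control crosses correlated at 0.131 for A, 0.0198 for B and -0.0397 for C. The values were 0.196, 0.000375 and 0.0875 with the paternal dose 1 cross and 0.135, -0.00935 and 0.0663 with the maternal dose 2 cross. Unlike letters correlated at -0.175 to 0.182 with the control cross. With the paternal dose 1 cross they ran from -0.186 to 0.124, and with the maternal dose 2 cross from -0.138 to 0.0957. On the first principal component of F2 testis, library A lay lowest within every cross. What the letters stand for was not tested. With the replicate block the counts were 0 against the control cross (1508 at an unadjusted p under 0.05; edgeR adjusted p = 0.0701 for both genes), 27 against the paternal dose 1 cross and 16 against the maternal dose 2 cross. The change of Gins1 stayed between 0.77 and 0.99 over 13 alternatives, 5 of which kept the call, and that of 1700001J04Rik between 2.65 and 3.20, where 6 did. No called gene reversed. Of 2240 recomputed changes of named genes, most of them of genes that had not passed, 2103 stayed within their error or on their side of the threshold. Calls were lost in 85 and gained in 8, and 44 moved beyond their error. Of the list medians, 414 of 442 stayed within the spread between libraries. With 6 to 12 counts of 1700001J04Rik per control cross library, its fold is imprecise.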
